A study of Mus musculus with 13 samples.

Results

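Wildtype-only KLF1 peaks near listed genes are regions that the authors called as bound by KLF1 in wildtype fetal liver, that share no base with any KLF1 peak called in MommeD45 fetal liver, and that lie within 10 kb of a gene in the authors' table of differentially expressed genes. Of 1203 wildtype peaks, 237 met this rule (19.7%, exact 95% interval 17.5 to 22.1). The other wildtype peaks were 605 wildtype-only peaks farther from listed genes, 111 shared peaks within 10 kb of a listed gene and 250 shared peaks farther away. The 237 regions lay near 238 of the 2036 listed genes. The regions were chosen by measured values of the same files, namely the peak calls of both genotypes and the authors' gene calls, so peak strength and gene calls are given as a description, with no test.

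Livers were taken at 14.5 days post coitum. KLF1 ChIP-seq came from wildtype and MommeD45 livers, with 1 library and 1 input library per genotype, each made from 2 pooled replicates. Whether the MommeD45 livers had 1 or 2 copies of the allele is not stated in the sources used here. Globin-depleted mRNA was sequenced in 3 replicates of each of 3 Klf1 genotypes: +/- (an intact and a null allele), D45/- (MommeD45 and a null allele) and -/- (null alleles only). The +/- and D45/- livers thus also carry a null allele, and no mRNA of wildtype livers was used here. The authors' table gives 1 abundance per genotype, taken to be FPKM, so no spread between replicates stands beside a value. By the authors' deposited table, Klf1 itself had 378 FPKM in +/-, 398 FPKM in D45/- and 34.8 FPKM in -/- livers.

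KLF1 is an erythroid transcription factor with zinc fingers. It binds CACCC-type DNA elements and is known as an activator of genes for hemoglobin, heme synthesis, the red cell membrane and the exit from the cell cycle. The series title places the mutations studied in a linker of the protein. Fetal liver at this stage mostly makes red cells, but it also holds hepatocytes, macrophages and other blood cells. In such bulk tissue, fewer cells of a type and less RNA per cell cannot be told apart.

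Promoters are shown for 8 genes with a wildtype-only summit at or close to their start. The bases are those before the start in GRCm38.p6 and not the called mm9 regions, and the Icam4, Rhd and Kel summits lie at or just past the start, beyond the printed bases. The 8 are 5 promoters with a match to the pattern CCNCNCCC (Icam4, Cdan1, Birc5, 1300017J02Rik and Mafk) and 3 blood group or erythroid promoters without such a match (Rhd, Kel and Trim10). The shorter letters CACCC do occur in these 3, on either strand. Each line gives the 250 bases before the gene's start, 5′ to 3′ on the gene's strand, from RefSeq (GRCm38.p6). Capitals mark every match on either strand to CCNCNCCC, a CACCC-type pattern, and to AGATAA, the letters of a GATA factor site. Adjoining matches can run together, and CCACACCC is a special case of the first pattern.
Icam4: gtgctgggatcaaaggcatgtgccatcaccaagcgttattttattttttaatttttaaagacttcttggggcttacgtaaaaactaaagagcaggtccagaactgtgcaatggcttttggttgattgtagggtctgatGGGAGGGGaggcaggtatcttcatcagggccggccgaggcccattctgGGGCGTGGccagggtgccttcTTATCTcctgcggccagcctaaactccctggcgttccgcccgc
Cdan1: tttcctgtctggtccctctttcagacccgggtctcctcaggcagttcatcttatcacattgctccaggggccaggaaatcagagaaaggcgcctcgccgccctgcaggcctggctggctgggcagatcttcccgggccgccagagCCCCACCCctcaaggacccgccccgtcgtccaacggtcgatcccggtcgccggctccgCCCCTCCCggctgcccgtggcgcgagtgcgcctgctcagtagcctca
Birc5: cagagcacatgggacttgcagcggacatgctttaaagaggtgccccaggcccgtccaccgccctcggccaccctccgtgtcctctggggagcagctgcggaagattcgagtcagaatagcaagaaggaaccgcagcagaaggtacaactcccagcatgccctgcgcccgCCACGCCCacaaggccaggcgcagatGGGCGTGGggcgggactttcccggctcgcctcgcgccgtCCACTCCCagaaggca
1300017J02Rik: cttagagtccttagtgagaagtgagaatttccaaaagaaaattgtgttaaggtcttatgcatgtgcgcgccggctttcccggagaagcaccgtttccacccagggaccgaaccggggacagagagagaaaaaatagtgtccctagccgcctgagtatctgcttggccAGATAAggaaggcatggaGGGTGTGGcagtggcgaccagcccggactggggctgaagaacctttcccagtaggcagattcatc
Mafk: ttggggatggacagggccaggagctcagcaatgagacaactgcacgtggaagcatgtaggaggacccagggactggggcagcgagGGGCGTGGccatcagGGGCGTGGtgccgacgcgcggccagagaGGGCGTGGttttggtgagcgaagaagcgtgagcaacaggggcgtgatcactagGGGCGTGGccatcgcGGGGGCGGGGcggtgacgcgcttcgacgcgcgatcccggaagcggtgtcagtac
Rhd: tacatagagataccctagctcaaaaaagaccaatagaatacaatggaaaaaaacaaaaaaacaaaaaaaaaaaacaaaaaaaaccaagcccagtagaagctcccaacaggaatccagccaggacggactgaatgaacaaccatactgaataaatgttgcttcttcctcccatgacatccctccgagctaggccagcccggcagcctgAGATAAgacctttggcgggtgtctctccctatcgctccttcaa
Kel: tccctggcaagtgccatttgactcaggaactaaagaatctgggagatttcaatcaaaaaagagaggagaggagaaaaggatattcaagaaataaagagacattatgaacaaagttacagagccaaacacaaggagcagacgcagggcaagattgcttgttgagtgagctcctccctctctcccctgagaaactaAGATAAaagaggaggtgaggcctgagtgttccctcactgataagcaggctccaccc
Trim10: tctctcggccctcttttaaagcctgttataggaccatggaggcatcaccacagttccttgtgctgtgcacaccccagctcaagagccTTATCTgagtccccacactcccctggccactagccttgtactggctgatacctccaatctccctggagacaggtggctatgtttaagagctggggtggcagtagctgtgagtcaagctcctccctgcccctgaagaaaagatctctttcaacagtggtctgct

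The Icam4 promoter lies at chr9:21029182-21029431 on the plus strand, and Icam4 encodes a red cell adhesion protein of the Landsteiner-Wiener blood group. It holds 2 CCNCNCCC matches, which begin 112 and 64 bases before the start, and 1 AGATAA match that begins 43 bases before it. Cdan1 (chr2:120731518-120731767, minus strand), whose human counterpart is mutated in congenital dyserythropoietic anemia, holds 2 CCNCNCCC matches. Birc5 (chr11:117848987-117849236, plus strand), which encodes the mitotic protein survivin, holds 3. The promoter of 1300017J02Rik (chr9:103288298-103288547, minus strand) is 1 of 2 with the strict CCACACCC letters and also holds AGATAA, and Mafk (chr5:139791286-139791535, plus strand), which encodes a small Maf partner of NF-E2, holds 6 CCNCNCCC matches. The promoters of Rhd (chr4:134864286-134864535, plus strand) and Kel (chr6:41704326-41704575, minus strand), which encode the Rh and Kell blood group proteins, held no CCNCNCCC match and 1 AGATAA match each, 43 and 56 bases before the start. Trim10 (chr17:36869324-36869573, plus strand), a gene for a tripartite motif protein of erythroid cells, had the same combination, with its AGATAA match 163 bases before the start.

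These letters were counted in the 39 promoters with 1 RefSeq start, a gene length within 5% of the deposited locus and a wildtype-only summit between 250 bases before and 50 bases after the start. CCNCNCCC was present in 32 of the 39 (82.1%, exact 95% interval 66.5 to 92.5). The same letters were present in 44.7% of all 22862 promoters with 1 start and in 64.8% of 1064 listed genes with no wildtype peak within 10 kb. For promoters with a shared summit the count was 17 of 22 (77.3%, 54.6 to 92.2). The median GC content was 64.4% in the promoters with wildtype-only summits, 62.6% with shared summits, 59.6% in listed genes with no peak and 52% in all promoters, so GC content moved with these shares, and its part in them was not tested. AGATAA was present in 8 of 39 promoters (20.5%, 9.30 to 36.5), against 1 of 22 with shared summits (4.55%, 0.115 to 22.8) and 10.4% of all promoters. CCACACCC was present in 2 of 39 (5.13%) and in 3.21% of all promoters. Among the 39, the promoters of Pabpc4, Ube2c and Mif held neither CCNCNCCC nor AGATAA. A match is a description of letters and not evidence of a bound site.

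Most of the 237 regions were below the median strength of all wildtype peaks. The fold enrichment of the regions over the local background, the authors' own value, ran from 2.52 to 33.6 with a median of 4.54. This median was 4.93 over all 1203 wildtype peaks. It was 6.06 for the 111 shared peaks near listed genes and 4.61 for the 605 wildtype-only peaks farther away. The median length of the 237 regions was 242 bases, beside 320 for the shared peaks near listed genes. By range of strength near listed genes, 72 of 81 peaks below a fold enrichment of 4 had no MommeD45 peak on them (88.9%, exact 95% interval 80.0 to 94.8), against 6 of 39 at 8 or above (15.4%, 5.86 to 30.5). Absence from the MommeD45 list means that no peak was called there, and the signal of the MommeD45 library at these regions was not analysed here. The sequencing depth of both libraries is unknown, so the part of depth in these absences was not tested.

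**Figure D1:**
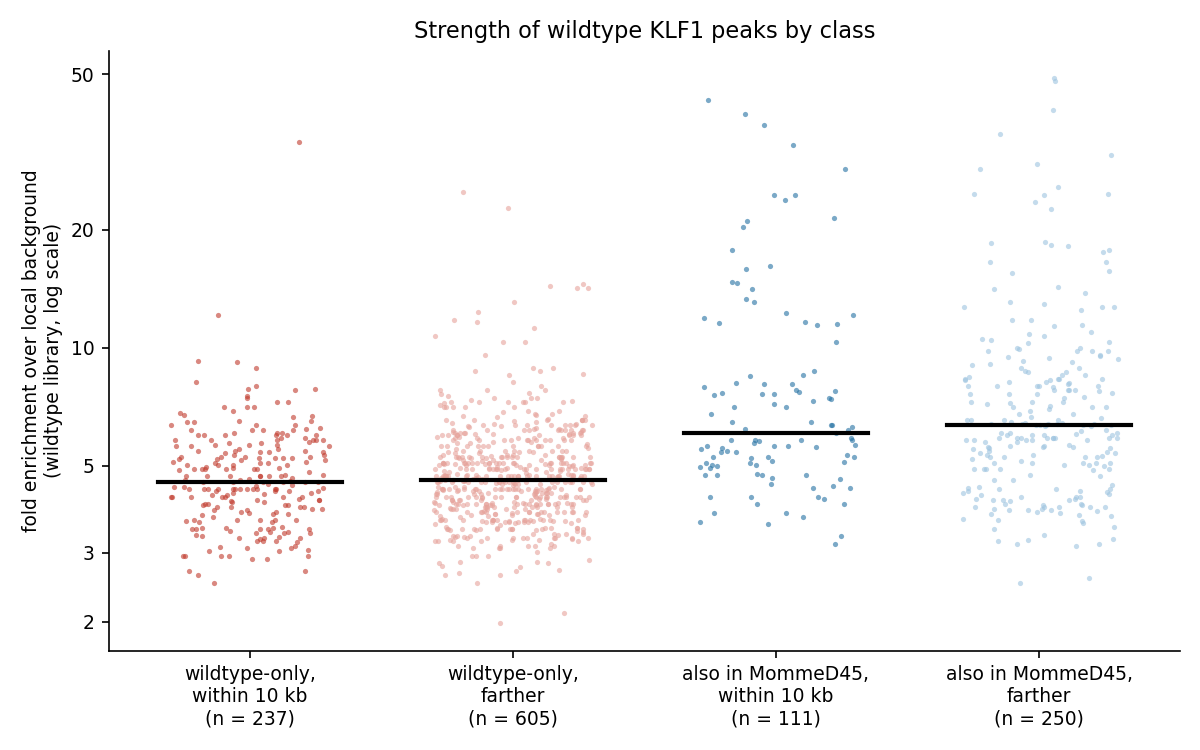
Fold enrichment over local background (log scale) of each wildtype KLF1 peak, by class; each point is 1 peak and the black bar is the median. The 237 wildtype-only peaks within 10 kb of a listed gene have a median of 4.54, below the 6.06 of the 111 shared ones, and 1 of them, at 33.6, stands far above the rest.

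**Figure D2:**
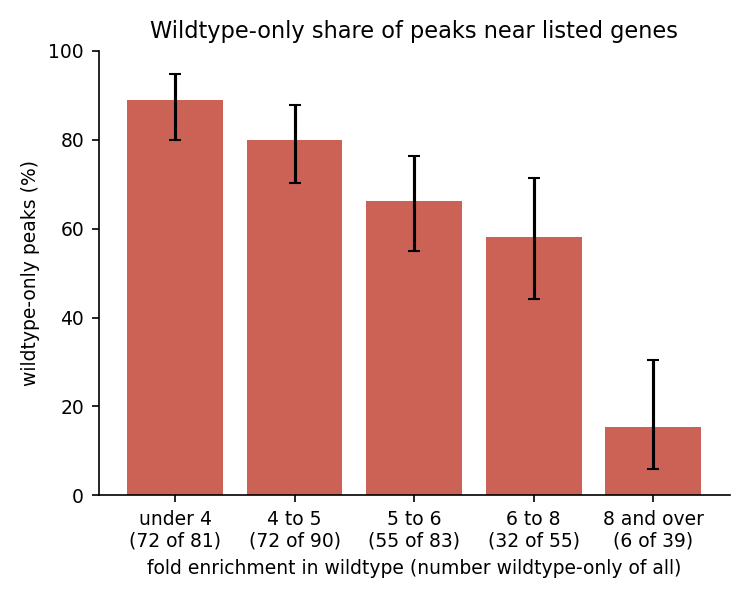
Share (%) of wildtype peaks near listed genes that were wildtype-only, in 5 ranges of fold enrichment, with exact 95% intervals that cover counting error only. The share went from 88.9% below a fold of 4 to 15.4% at 8 and above.

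The strongest region stood apart from the others. It lay at chr9:66351774-66352238 (mm9) inside Herc1, which encodes a large ubiquitin ligase, with a fold enrichment of 33.6 and a pileup of 215 fragments. The next was at chr11:96817375-96817728 inside D030028A08Rik, with a fold enrichment of 12.1. The other 8 of the 10 strongest had values between 7.81 and 9.26. Herc1 and D030028A08Rik also had a shared peak within 1 kb of their start, of fold enrichment 4.74 and 4.38, so the region inside the gene was called in wildtype only while that near the start was called in both genotypes. Herc1 was at 43.6 FPKM in +/- livers, 33.1 in D45/- livers and 17.2 in -/- livers by the authors' deposited table.

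The remaining 8 regions lay near 12 listed genes with varied roles. The region at chr3:85529069-85529335 (9.26) was inside Fam160a1, and that at chr5:104491817-104492112 (9.22) inside Nudt9. The region at chr5:89197310-89197633 (7.99) was inside Dck, which encodes deoxycytidine kinase of nucleotide salvage. In the authors' deposited table Dck was at 75.6 FPKM in +/- livers, 33.1 in D45/- livers and 16.9 in -/- livers. The region at chr19:5726988-5727236 (7.88) lay outside but near the loci of Ehbp1l1, Fam89b and Sssca1, and each of these genes was called lower in -/- livers by the authors' deposited table (log2 ratios -2.10, -1.27 and -0.94). The regions near Sept1 (8.90), Trove2 (8.17) and M1ap (7.81), and the Icam4 region described next to its neighbours below (7.84), complete the 10.

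Gene starts held many of the regions. Of the 203 regions near a gene whose strand RefSeq gives, 93 had the summit within 1 kb of a start (45.8%, exact 95% interval 38.8 to 52.9), and 58 had it between 250 bases before and 50 bases after (28.6%, 22.5 to 35.3). For shared peaks near listed genes these were 48 of 88 (54.5%, 43.6 to 65.2) and 33 of 88 (37.5%, 27.4 to 48.5), and the intervals overlap. By the nearest gene, 57 regions were inside it and beyond 1 kb from the start, 24 were upstream and 30 downstream. In all, 147 of the 237 touched a listed locus (62.0%, 55.5 to 68.2). Whether a region lies in an exon, an intron or a UTR was not determined, because no mm9 gene models were used here, and genes outside the authors' table were not considered, so the gene named need not be the nearest.

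**Figure D3:**
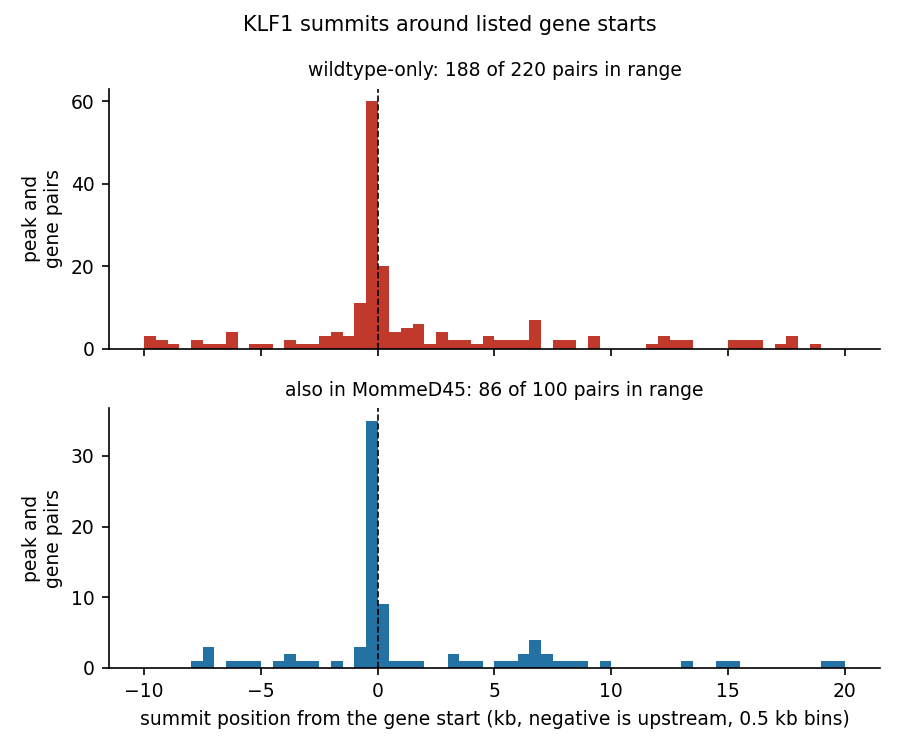
Position of KLF1 summits from the start of a listed gene (kb, negative is upstream, 0.5 kb bins), as number of peak and gene pairs, for wildtype-only peaks (top) and peaks also called in MommeD45 (bottom). Both distributions have their highest bin just upstream of the start; 188 of 220 and 86 of 100 pairs fall in the plotted range.

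Most genes near these regions had lower mRNA in -/- than in +/- livers. Of the 238 genes, 189 were called lower in -/- than in +/- and 29 higher, beside 6.78% and 7.00% of about 12965 genes assumed tested (15.7% were listed in any of the 3 comparisons). Over all 2036 listed genes the split was 879 lower and 907 higher. Genes near a shared peak gave 97 lower and 10 higher of 116. The median log2 ratio of the called genes was -1.10 near wildtype-only regions, -1.18 near shared peaks and 0.75 over all listed genes, by the authors' deposited table. The rule takes genes called in any of the 3 comparisons, so nothing is read from the number called itself.

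Against the same +/- livers, D45/- livers had 36 of the 238 genes lower and 8 higher, beside 1.10% and 0.663% of the genes assumed tested. Over all listed genes these were 142 and 86. Near shared peaks they were 12 and 1 of 116, which is 10.3% lower, against 15.1% lower near wildtype-only regions, and this difference was not tested. In D45/- against -/- livers, 120 of the 238 were higher in D45/- and 19 lower, beside 3.48% and 4.89% of the genes assumed tested. The 3 comparisons share libraries, so their calls are given side by side and not as support for each other.

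Call by call, 88 genes were lower in -/- than in both +/- and D45/- with no call between D45/- and +/-. Another 67 were called lower in -/- than in +/- only. In 20 genes lower in -/- than in +/-, D45/- was called between the 2 other genotypes. The same held for 1 gene higher in -/-, Crebrf. Another 14 were lower in both D45/- and -/- than in +/- with no call between D45/- and -/-. Of the 189 genes lower in -/-, 122 have an abundance for all 3 genotypes by the authors' deposited table. Among these 122, the D45/- abundance was a median of 74.2% of the +/- one (quartiles 55.3 and 91.0) and the -/- abundance 33.4% (20.2 and 45.5). These 122 are the genes called in a comparison with D45/-, and the 67 without such a call have no D45/- value, so the medians describe genes selected by a D45/- call, and most entered because D45/- was called above -/-. The corresponding medians, selected in the same way, were 76.2% and 35.2% near shared peaks and 77.4% and 38.3% over all listed genes lower in -/-.

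Membrane skeleton genes near a wildtype-only region included Epb4.9, Ank1, Tmod1 and Stom, and each of these was called lower in -/- livers. Of all 16 listed membrane skeleton genes, 13 were lower and 2 higher in -/-. Epb4.9 encodes dematin, which bundles actin at the junctions of the skeleton, and it carried 2 regions inside its locus, at chr14:71023756-71023963 and chr14:71026840-71027080 (fold enrichment 3.46 and 4.896), and no shared peak. Its mRNA was at 112 FPKM in +/- livers, 24.3 in D45/- livers and 0.400 in -/- livers by the authors' deposited table, and it was called lower in D45/- than in +/- (log2 ratio -2.21, q 0.00159). D45/- thus lay between the other genotypes. Ank1 encodes ankyrin, which ties spectrin to the membrane, and it had 1 wildtype-only region (chr8:24254898-24255181, 3.37) beside 2 shared peaks. In the authors' deposited table Ank1 was at 309, 219 and 47.2 FPKM in the same order of genotypes, with no call between D45/- and +/-. The capping protein gene Tmod1 and the stomatin gene Stom had log2 ratios of -1.58 and -1.18 in -/- against +/- by the authors' deposited table, without a call between D45/- and +/-.

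Blood group genes Icam4, Rhd and Kel each had a region on their start. Of all 11 listed genes for blood group and adhesion proteins, 10 were called lower in -/- than in +/- and 0 higher. The Icam4 summit (chr9:20833704-20834118, 7.84) lay 28 bases after the start of the locus, just past the promoter printed above. Icam4 was at 259 FPKM in +/- livers, 119 in D45/- livers and 25.5 in -/- livers by the authors' deposited table (D45/- over +/- log2 ratio -1.12, q 0.00159). The same region lies within 10 kb of Icam1 and Icam5, and Icam1, an adhesion receptor gene of endothelium and leukocytes, went the other way, with 10.2, 9.01 and 29.1 FPKM by the authors' deposited table. Rhd (chr4:134420284-134420598, 6.53, summit 4 bases after the start) was at 618, 410 and 128 FPKM by the authors' deposited table. Kel (chr6:41654199-41654478, 4.46, summit at the start itself) was at 321, 240 and 124 FPKM there. Rhd and Kel were called lower in -/- than in either other genotype, and were not called between D45/- and +/-.

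Membrane transporters near a wildtype-only region were Slc2a4, Slc43a1, Slc1a5, Kcnn4, Slc6a9 and Piezo1, 6 of the 25 listed. All 6 were called lower in -/- and 4 of them also in D45/-, while of the 25 listed 19 were lower and 3 higher in -/-, and 8 lower and 2 higher in D45/-. Slc2a4 had 2 regions that touched its locus, and only that at chr11:69759932-69760163 (5.23) lay inside it. The region at chr11:69761613-69761877 (3.40) overlapped an end of the locus and had its summit outside. Slc2a4 encodes the insulin-responsive glucose transporter. It had the lowest ratio of D45/- over +/- among the 44 genes called, with 10.7 FPKM in +/-, 0.714 in D45/- and 0.217 in -/- livers by the authors' deposited table (log2 ratio -3.91). Slc43a1, a transporter gene for large neutral amino acids, had 1 region inside the locus (chr2:84682170-84682404, 3.98) and was at 172, 31.0 and 8.66 FPKM by the authors' deposited table. Slc1a5 encodes a glutamine transporter and had a region inside its locus (chr7:17368879-17369073, 4.66). Unlike the genes before it, Slc1a5 was as low in D45/- as in -/- livers, at 98.5 FPKM in +/- livers, 17.7 in D45/- livers and 17.6 in -/- by the authors' deposited table. Kcnn4, which encodes the calcium-activated potassium channel of the red cell, had a wildtype-only region 452 bases upstream of its start (chr7:25154694-25154887, 3.02) and a shared peak inside the gene (7.70). In the authors' deposited table Kcnn4 was at 170, 75.5 and 18.6 FPKM. Piezo1, the mechanosensitive channel gene mutated in human xerocytosis, had its summit 103 bases before the start (chr8:125075227-125075431, 3.34) and was at 63.4 FPKM in +/- and 35.6 in -/- livers by the authors' deposited table.

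Heme synthesis and its carriers had 5 of 15 listed genes near a wildtype-only region, all 5 called lower in -/-, as were 12 of the 15. Slc25a37, which carries iron into mitochondria, had a region 4317 bases outside its locus (chr14:69907477-69907714, 4.43) and was at 554 FPKM in +/- livers, 302 in D45/- livers and 52.8 in -/- livers by the authors' deposited table (D45/- over +/- q 0.036). Slc25a39, a mitochondrial glutathione carrier gene, had a region 1043 bases upstream of its start (chr11:102269745-102269980, 4.95) and was at 371, 225 and 109 FPKM by the authors' deposited table (q 0.048). Both q-values of D45/- against +/- lay close to the authors' limit of 0.05. The glycine carrier gene Slc25a38 had 2 regions inside the locus (5.99 and 4.38), as had Glrx5 (3.31 and 3.601), whose product takes part in iron-sulfur cluster assembly. Alad, the enzyme of the second step of heme synthesis, had a wildtype-only region 103 bases after its start (chr4:62180895-62181101, 3.03) and a shared peak inside the gene (4.15). In the authors' deposited table Alad was at 814, 504 and 72.9 FPKM, with no call between D45/- and +/-. Ferritinophagy receptor gene Ncoa4 was the only gene of the separate list of iron uptake and handling among the 238. Ncoa4 carried 2 regions inside its locus (5.33 and 3.13) and was at 230 FPKM in D45/- and 124 in -/- livers by the authors' deposited table.

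**Figure D4:**
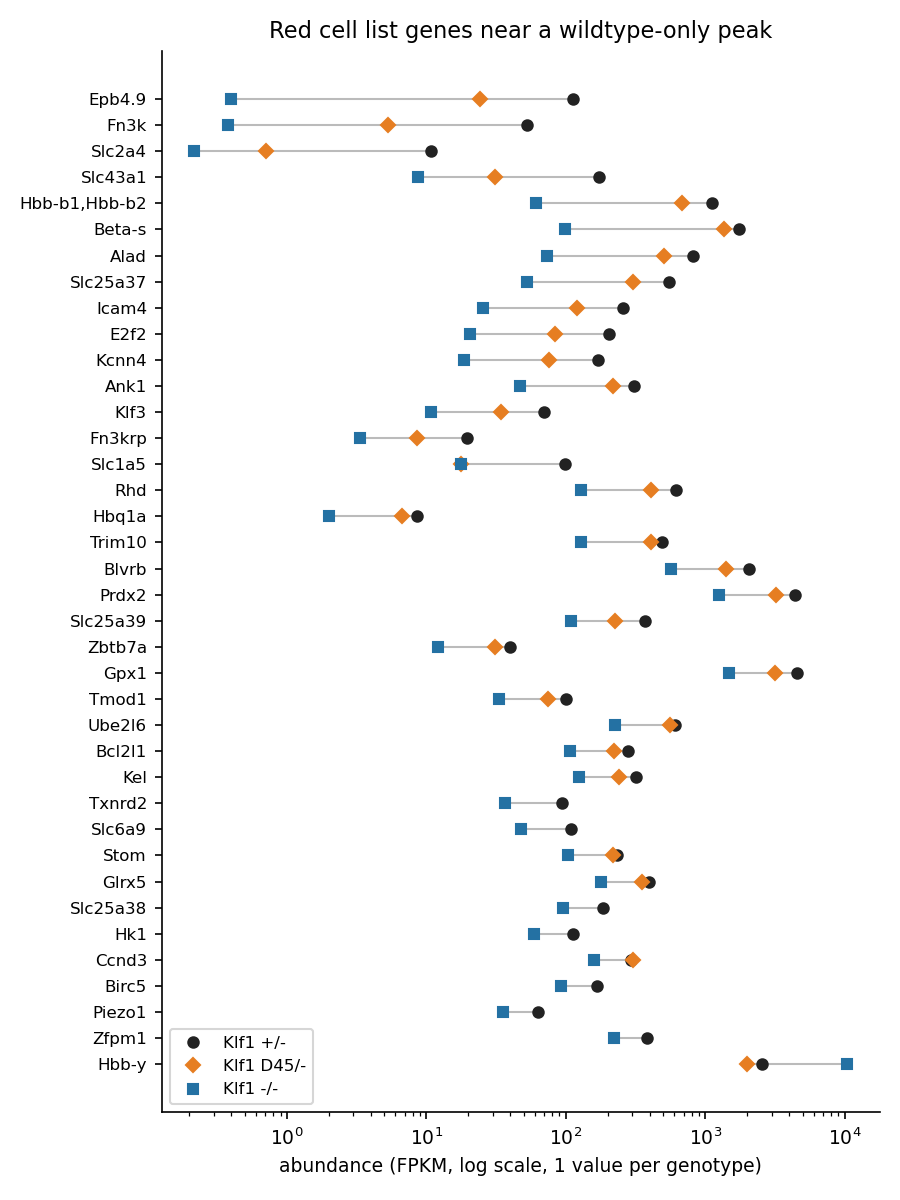
Abundance (FPKM, log scale) in +/- (circles), D45/- (diamonds) and -/- (squares) livers of 38 genes of the red cell lists with a wildtype-only region within 10 kb, 1 value per genotype from the authors' deposited table; 31 of the 38 have a D45/- value. All but Hbb-y were lower in -/- than in +/-, and the distance of the diamond from the circle varied widely between genes. The mRNA was globin-depleted, so the globin values need not be those of the livers.

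Red cell redox and glycolysis had 7 of 16 listed genes near these regions, and all 7 were lower in -/-, while of the 16 listed 10 were lower and 6 higher. Fn3k and its neighbour Fn3krp, which encode kinases that act on glycated proteins, shared a region at chr11:121294790-121295065 (5.90), and Fn3krp had another with the summit 38 bases before its start (chr11:121282526-121282751, 4.903). Fn3k was at 52.4 FPKM in +/- livers, 5.27 in D45/- livers and 0.376 in -/- livers by the authors' deposited table, and Fn3krp at 19.5, 8.51 and 3.35. Both genes were called lower in D45/- than in +/-, with log2 ratios of -3.31 and -1.20 by the authors' deposited table. The peroxiredoxin gene Prdx2 (region 6.72) was at 4415, 3208 and 1245 FPKM, and the biliverdin reductase gene Blvrb (3.64) at 2045, 1414 and 572, by the authors' deposited table. Neither was called between D45/- and +/-. Gpx1, Hk1 and Txnrd2 had log2 ratios of -1.62, -0.93 and -1.36 in -/- against +/- by the authors' deposited table. Gpx1 also had a shared peak (8.14) with its summit 51 bases after the start, and its wildtype-only region (4.27) lay 536 bases outside the locus.

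Among regulators, Klf3, Zbtb7a, Zfpm1 and Trim10 of the list of erythroid transcription factors and cofactors (4 of 18 listed) and the cell cycle genes E2f2, Ccnd3 and Birc5 (3 of 20 listed) lay near a wildtype-only region, and all 7 were lower in -/-. Of the listed genes, 15 of 18 and 19 of 20 were lower. Zfpm1 also had a shared peak inside the gene (5.59), beside its wildtype-only region (4.06) outside the locus. E2f2, a cell cycle transcription factor gene, had a wildtype-only region 17625 bases after its start (chr4:135745781-135746090, 6.48) and a shared peak of fold enrichment 12.3 at 5728 bases. E2f2 was at 203 FPKM in +/- livers, 83.8 in D45/- livers and 20.6 in -/- livers by the authors' deposited table. Klf3, which encodes a related factor that represses through the same kind of sites, had a region 8190 bases after its start (chr5:65202871-65203064, 4.102). It was at 70.0, 34.2 and 10.8 FPKM by the authors' deposited table. E2f2 and Klf3 were called lower in D45/- than in +/-, with log2 ratios of -1.28 and -1.04 by the authors' deposited table. Zbtb7a, a fetal globin repressor gene in human cells, had 2 regions around its start (5.22 and 4.18) and was at 39.9, 31.3 and 12.2 FPKM by the authors' deposited table. Ccnd3 (cyclin D3) had 2 wildtype-only regions (3.86 and 4.45) and a shared peak, and was at 293, 305 and 160 FPKM by the authors' deposited table. The mitophagy and enucleation list had Ube2l6 (3.94) of 9 listed (8 lower, 1 higher) and the signalling list Bcl2l1 of 10 listed (5 lower, 3 higher). Bcl2l1, the survival gene that encodes Bcl-xL, had 1 region inside the locus (4.21), with a log2 ratio of -1.40 in -/- against +/- by the authors' deposited table.

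On the globin list, 5 of the 7 listed genes had a wildtype-only region within 10 kb, and 3 of the 5 were lower and 1 higher in -/- than in +/-, beside 4 and 2 of the 7. On chromosome 7, 2 regions lay at the merged adult row Hbb-b1,Hbb-b2 (chr7:110958953-110960251 and chr7:110961904-110962622, 6.07 and 4.50). Beta-s had 1 region (6.36) and also a shared peak (5.63) with its summit 73 bases before the start. Another 2 regions lay upstream of the embryonic gene Hbb-y (4.36 and 5.81). Hbb-b1,Hbb-b2 was at 1123 FPKM in +/- livers, 680 in D45/- livers and 61.4 in -/- livers, and Hbb-y at 2554, 2003 and 10394, by the authors' deposited table. On chromosome 11 a region between Hba-a2 and Hbq1a (chr11:32198012-32199226, 6.66) lay 1426 bases from a MommeD45 peak, and both genes also had a shared peak. The sequenced mRNA was globin-depleted, so these globin abundances and their ratios between genotypes need not be those of the livers. Several globin genes have near-identical copies, so the peaks and mRNA of such single genes are uncertain.

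A wildtype-only summit lay between 250 bases before and 50 bases after the start of 59 genes; those named here were chosen after their values were seen and stand for no group. Of the 59, 47 were called lower and 7 higher in -/- than in +/-, and 7 lower and 1 higher in D45/-. For the 33 genes with a shared summit there, these were 24 and 7, and 2 and 0. The split of the 59 is close to the 189 lower and 29 higher of all 238 genes. Ube2c, a ubiquitin-conjugating enzyme gene of mitotic exit, was at 565, 377 and 175 FPKM in +/-, D45/- and -/- livers by the authors' deposited table (region 5.41), and a shared peak lay downstream of it (11.5). Mybl2, which encodes the cell cycle factor B-Myb, was at 116, 73.7 and 38.4 FPKM by the authors' deposited table (2.95). Birc5, whose promoter is printed above, was at 167 FPKM in +/- and 92.4 in -/- livers by the authors' deposited table (4.27, summit 46 bases before the start), and had no D45/- value. Prc1, of the mitotic spindle midzone (4.36), and Cenpf, of the kinetochore (2.69), had log2 ratios of -0.90 and -0.71 in -/- against +/- by the authors' deposited table. Pabpc4, a poly(A)-binding protein gene, had its summit 177 bases before the start (6.36) and was at 387, 195 and 77.0 FPKM by the authors' deposited table. Cdan1 was at 15.1, 12.0 and 6.40 FPKM there (5.81). Among those named here, Pabpc4 alone was called lower in D45/- than in +/- by the authors' deposited table.

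The 10 lowest of the 36 genes lower in D45/- were Slc2a4, Fn3k, Slc43a1, Slc1a5, Fam53b, Epb4.9, Wdr65, Mgll, Ces2g and Ehbp1l1. Some of them were close to their -/- level. Fam53b (region chr7:139915637-139915835, 3.59) was at 45.8 FPKM in +/- livers, 8.92 in D45/- livers and 5.52 in -/- livers by the authors' deposited table. Mgll, which encodes monoacylglycerol lipase, had a region 6880 bases after its start (chr6:88681184-88681381, 3.44) and was at 17.9, 4.01 and 5.99 FPKM by the authors' deposited table. Ces2g, a carboxylesterase gene, had a region 678 bases after its start (5.33) and was at 22.8, 7.60 and 6.91 FPKM by the authors' deposited table. None of these 3 was called between D45/- and -/-. Others had far less mRNA in -/- than in D45/-, such as Epb4.9 and Fn3k with log2 ratios of D45/- over -/- of 5.92 and 3.81 by the authors' deposited table.

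The 8 genes higher in D45/- than in +/- were Fam160a1, Btn1a1, Slc10a1, Ltbp2, Trove2, Crebrf, Glipr2 and Ttc39a. Several were scarce. Fam160a1, under the third strongest region, was at 1.61 FPKM in +/- livers, 8.16 in D45/- livers and 11.6 in -/- livers by the authors' deposited table. Btn1a1, a butyrophilin gene, had a region 3407 bases outside its locus (4.72) and was at 8.08, 36.7 and 28.0 FPKM by the authors' deposited table. Crebrf, a regulator of the unfolded protein response, had a summit 177 bases before its start (5.65) and was at 0.873, 1.74 and 4.89 FPKM by the authors' deposited table. Glipr2 was higher in D45/- than in either other genotype, at 67.2, 121 and 54.0 FPKM by the authors' deposited table (7.08).

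Genes higher in -/- with a wildtype-only region included Hbb-y, Zfp36, an mRNA decay factor gene (8.92 FPKM in +/- and 30.1 in -/- by the authors' deposited table), and the nuclear RNA gene Malat1 (19.9 and 43.0), which had 2 regions around its start. The 10 lowest ratios of -/- over +/- also included Nhlrc4 (log2 ratio -4.87 by the authors' deposited table, region 2.949), and the 10 highest included Bzrap1 and Arl5c (2.05 and 1.96 by the authors' deposited table). Of the marker lists of other cells, Gp1ba (platelet glycoprotein Ib, log2 ratio 0.92 by the authors' deposited table) was the 1 megakaryocyte gene of 16 listed with a region within 10 kb, at 4824 bases from its locus. All 16 listed megakaryocyte markers, 7 of 9 listed granulocyte and macrophage markers and 3 of 6 listed hepatocyte and endothelial markers were called higher in -/- than in +/-, and their part in the results was not tested. None of the 9 listed granulocyte and macrophage markers, the 6 listed hepatocyte and endothelial markers or the 3 listed carbonic anhydrase genes had a wildtype-only or a shared peak within 10 kb. In all, 42 of the 238 genes were on one of the 15 lists, of which 38 were lower and 2 higher in -/-, and 196 were on none. The lists are not independent of earlier results of these data.

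Single regions were the usual case. Of the 238 genes, 217 had 1 wildtype-only region, 20 had 2 and 1, Fam109b, had 3, placed upstream of, at and beyond the gene (4.17, 5.03 and 5.65). A shared peak also lay near 27 of the 238 genes (11.3%, exact 95% interval 7.61 to 16.1), and of the 25 of these called in -/- against +/- all were lower. The other 211 genes had only wildtype-only peaks within 10 kb, and 164 of them were lower and 29 higher in -/-. The median distance to the nearest MommeD45 peak was 341 kb, and 20 regions lay within 10 kb of one. The nearest was 260 bases from the region at chr5:139675875-139676101 upstream of Sun1, a nuclear envelope gene, and 555 bases separated the next from the region in Ppp1r10.

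At the limits of the rule, the outermost regions inside 10 kb lay 9700, 9504 and 9439 bases from Rnf145, Adam10 and Hmox1, with fold enrichments of 5.63, 4.36 and 3.05. The nearest outside were 10038, 10195 and 10456 bases from Trim59, Gys1 and Arhgef12, with 7.63, 4.29 and 4.36. Among shared peaks near listed genes, the least overlap with a MommeD45 peak was 8.62% of the wildtype peak, near Hba-x.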

How the data were processed

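KLF1 binding and mRNA were measured in mouse fetal livers. Per the deposited description sheet, reads were mapped as pairs to mm9 with Bowtie2, duplicates were removed with Picard and peaks were called with MACS2; TopHat2 2.0.10 comes from the submitters' processing notes. Per the file headers, the authors' peak lists hold a signal (pileup), a ratio (fold enrichment over local background) and −log10 q, called on 1 library of 2 pooled replicates. Per the file headers, the authors' gene table gives abundances (taken as FPKM from the cuffdiff layout), log2 ratios, a test score, p-values and q-values at a q under 0.05, with no depth.

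A peak with several summits was kept at its strongest one, and 1 base in common made peaks shared. Log2 ratios, which hold no pseudocount, were oriented as in the text. The q-values imply 12965 tests per comparison, an assumption. By symbol, 2028 of 2036 listed genes matched RefSeq (GRCm38.p6) and 1627 had a usable strand. Peaks of 1 library per genotype allow no test. Exact (Clopper-Pearson) intervals cover counting error only, and regions are not replicates. The interval script was tested on simulated data.

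Named peaks were mainly the 10 strongest and those at the limits of the rule. Named genes were mainly those near them, the 10 lowest and highest by ratio, those with 3 regions and those on 15 lists. Some other genes, such as Malat1 and several with a summit close to their start, were named outside these choices. The members and lists were chosen with earlier results of these data known. A gene of these lists is not reported here. Alternatives covered the overlap, distance, thresholds, abundance and gene assignment. Python 3.11.15, pandas 2.3.3, numpy 2.4.6, scipy 1.17.1, matplotlib 3.10.9 and bedtools 2.31.1 were used.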

Additional observations from a re-analysis of the deposited data

How the results depend on the processing

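Of 60 alternative values, 51 stayed close to the reported one. For counts this label is loose, as it takes in 351 regions at a distance of 50 kb and 175 at a -log10 q of at least 5. Only the values for direction could reverse, and 0 did. The 237 regions became 147 when a region had to touch the listed locus, 93 at a fold enrichment of at least 5 and 47 when only genes called in D45/- against +/- counted. The 238 genes became 138, 101 and 44 under the same settings and 400 at a distance of 50 kb. At 50 kb the share of called genes that were lower in -/- than in +/- was 78.7% in place of 86.7%, and the share lower in D45/- than in -/- was 22.2% in place of 13.7%; a wider window takes in more listed genes. Under the other alternatives run these shares ranged from 85.0% to 90.3% and from 10.5% to 16.0%, and the share lower in D45/- than in +/- from 80% to 88.9%, against 81.8%. The median fold enrichment ranged from 4.54 to 5.09.

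No paired analysis was possible because the deposited table holds 1 value per genotype and the peak lists 1 library per genotype. For the same reason no replicate was left out.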
